A study of Mus musculus with 4 samples.

Results

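The GATA transcription factors are the 6 genes Gata1 to Gata6, taken as every probe set on the array annotated to exactly 1 of these symbols. The rule found 11 of 45101 probe sets, covering all 6 of these among 18193 named genes, and no probe set was shared between a GATA gene and another gene. Their transcripts were read with Affymetrix MOE430 arrays in 3 samples of whole ureter and in 1 reference sample at postnatal day 1 (Theiler stage 27). The ureters came from male FVB/N mice carrying the SMGA/EGFP transgene, whose name refers to the smooth muscle gamma-actin gene Actg2, and were freed from kidney and bladder without pooling or sorting of cells. The reference was a pool of entire FVB/N animals of both sexes and carried no transgene. Effects of tissue, transgene, sex and pooling therefore cannot be told apart. The comparison asks where each family member is richer or poorer in this organ than in the newborn body. Whether each ureter sample is a different mouse is not in the labels, so the p-values rest on a spread between samples that may be technical only, and the single reference array was taken to vary as the ureters do.

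GATA factors bind DNA through a pair of zinc fingers that recognise the sequence for which the family is named, and they act with Friend of GATA (Zfpm) cofactors and with complexes of LIM-only and basic helix-loop-helix proteins. Gata1 drives red cell, megakaryocyte and mast cell development, Gata2 maintains blood progenitors and endothelium and is needed in the embryonic urogenital tract, and Gata3 acts in the nephric duct, urothelium, T cells, sympathetic neurons and skin. Gata4, Gata5 and Gata6 are best known from heart and gut, Gata4 also from the gonad and Gata6 from smooth muscle.

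The start regions of Gata2, Gata3 and Gata5 are shown because these are the genes with a call, all higher in the ureters, whose promoters could be matched. RefSeq promoters (build GRCm38.p6) were matched by symbol for 4 of the 6 genes, and those of Gata4 and Gata6 were not analysed here. Gata2 has 2 annotated starts, both on the plus strand of chromosome 6, whereas Gata3 and Gata5 lie on the minus strand of chromosome 2. The 250 bases before each start read, 5′ to 3′ on the gene's strand:
Gata2 first start (chr6:88193641-88193890): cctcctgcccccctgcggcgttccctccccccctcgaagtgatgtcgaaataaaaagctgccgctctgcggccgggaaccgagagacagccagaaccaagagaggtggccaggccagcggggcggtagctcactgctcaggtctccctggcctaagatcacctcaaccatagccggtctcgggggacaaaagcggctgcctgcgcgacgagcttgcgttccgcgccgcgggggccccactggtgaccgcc
Gata2 second start (chr6:88198414-88198663): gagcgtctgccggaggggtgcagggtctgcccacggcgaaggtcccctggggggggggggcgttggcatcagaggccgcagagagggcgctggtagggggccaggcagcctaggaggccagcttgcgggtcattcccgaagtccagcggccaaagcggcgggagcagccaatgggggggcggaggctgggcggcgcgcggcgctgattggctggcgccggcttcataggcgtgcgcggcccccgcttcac
Gata3 (chr2:9878601-9878850): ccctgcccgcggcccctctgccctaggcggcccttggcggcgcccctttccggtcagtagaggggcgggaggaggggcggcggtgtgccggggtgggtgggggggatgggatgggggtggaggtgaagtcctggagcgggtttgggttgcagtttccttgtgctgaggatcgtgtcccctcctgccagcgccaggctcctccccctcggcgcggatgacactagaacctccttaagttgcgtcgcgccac
Gata5 (chr2:180334680-180334929): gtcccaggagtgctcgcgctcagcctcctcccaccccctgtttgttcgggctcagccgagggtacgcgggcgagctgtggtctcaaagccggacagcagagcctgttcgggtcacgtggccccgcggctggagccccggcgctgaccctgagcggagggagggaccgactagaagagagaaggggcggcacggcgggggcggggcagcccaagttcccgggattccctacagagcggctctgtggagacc
The usual GATA-binding words, namely AGATAA or its variant AGATAG and likewise TGATAA or its variant TGATAG, were searched on both strands of the window from 250 bases before to 50 bases after each start. No word lay in either Gata2 window, in the Gata5 window or in that of Gata1, so the runs above carry no capitals. The Gata3 window held 1, TGATAG, starting at base 37 of the transcript, shown in capitals in its surroundings: ctggcgccgtctTGATAGtttcagaa. Of 32851 promoters of the same length, 29.8% held at least 1 of these words. These windows were rich in G and C, at 69.3% and 73.7% for Gata2, 67.3% for Gata3 and 69.7% for Gata5, against a median of 52.7% over all promoters, while that of Gata1 was at 57.3%. They held 32, 29, 22 and 26 CpG dinucleotides, in the same order, against 4 for Gata1 and a median of 7.

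Array quality bears on the dim members in particular. The median deposited intensity lay between 154.22 and 258.96 in the ureters and at 332.28 in the reference. The brightest of 27 probe sets for bacterial transcripts, used here as the level of background, read 57.18 in the first ureter replicate, 211.82 in the second, 101.5 in the third and 187.72 on the reference array. Correlations across the 27022 tested probe sets ran from 0.905 to 0.937 between ureters and from 0.741 to 0.768 between a ureter and the reference. Genes of the labelled tissue were present: of 11 smooth muscle genes 8 were higher in the ureters than in the reference and of 20 urothelial genes 11 were, with none lower in either list. Kidney genes differed between the ureter samples, their summed intensity over 8 nephron and collecting duct genes being 2798.42 in replicate 1, 13261.72 in replicate 2 and 7470.84 in replicate 3 against 8514.35 in the reference.

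Of the 11 GATA probe sets, 5 were higher in the ureters, none was lower, 3 did not pass and 3 were too dim to be tested. The limma fit called 2.79% of all tested probe sets higher and 3.58% lower. In 6 tested GATA probe sets all 3 ureters lay above the reference, as in 39.1% of all tested. By the brightest probe set of each gene, Gata2, Gata5, Gata3 and Gata6 were higher, and Gata4 and Gata1 did not pass, where 3.05% of all genes were higher and 4.88% lower. The median difference of the 6 genes was 1.96 on the log2 scale, beside 0.10 over all 13718 genes tested. Differences are log2 ureter minus reference after quantile normalization, with the standard error (SE) of the fit, and understate the change of dim probe sets because an offset of 12.23 was added to each intensity.

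**Figure D1:**
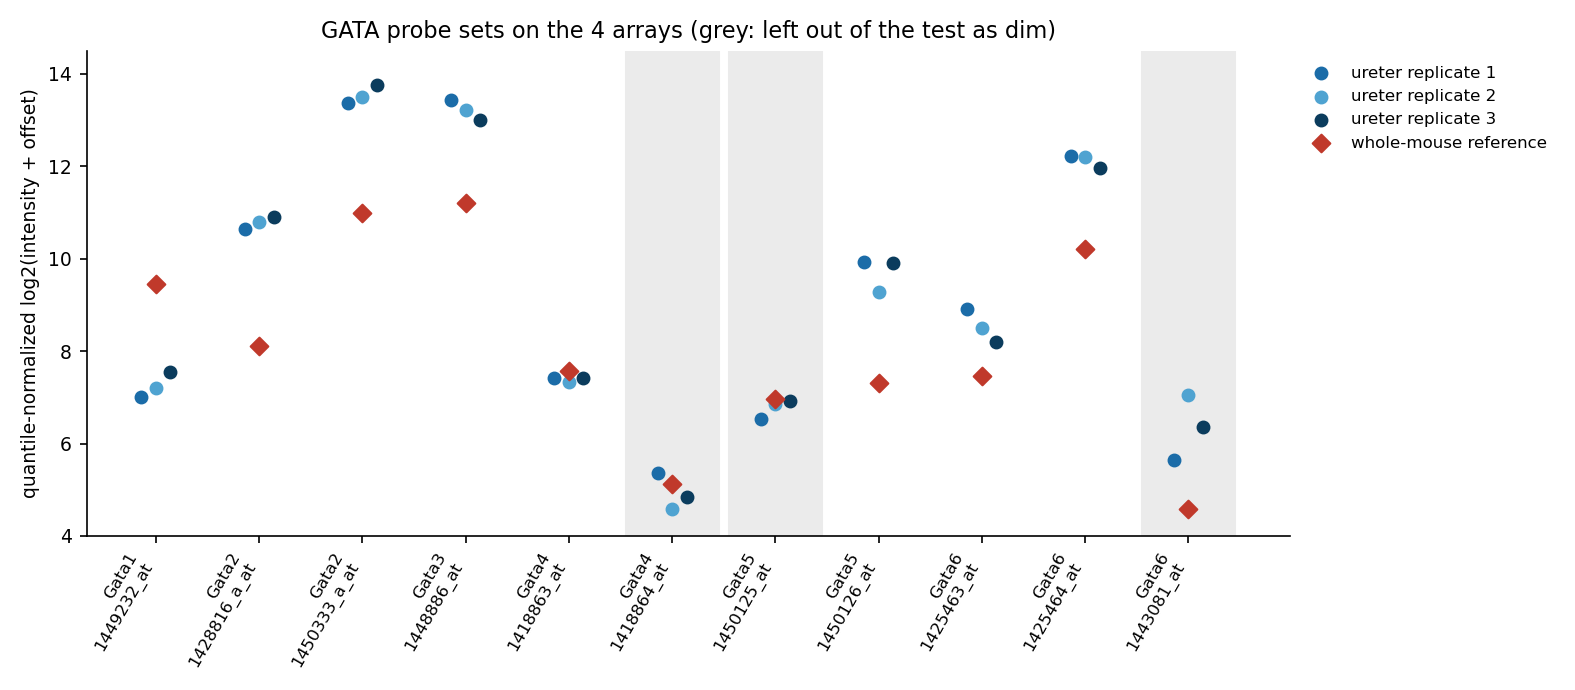
Quantile-normalized log2 values of the 11 GATA probe sets, with the 3 ureter replicates as blue circles and the whole-mouse reference as a red diamond; grey columns mark the 3 probe sets that were not tested. The ureters lie above the reference at both Gata2 probe sets, at Gata3, at Gata5 1450126_at and at all Gata6 probe sets, and below it at Gata1.

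Gata2 had the largest difference of the family in the reported fit and was higher at both of its probe sets. At the brighter, 1450333_a_at, the deposited intensity was 11039.3, 11282.83 and 14068.38 in the ureters and 2070.73 in the reference. All 3 ureters stood far above the reference and close to one another, with a standard deviation (SD) of 0.20 log2 units (n = 3). The difference was 2.54 ± 0.29 (SE), or 5.82-fold (adjusted p = 0.0118). The dimmer probe set, 1428816_a_at, read 1519.31, 1746.91 and 1910.51 in the ureters and 385.54 in the reference, again without overlap. Its difference of 2.67 ± 0.39, 6.38-fold, was of the same size (adjusted p = 0.0200). Of the alternatives run, Gata2 lost its call only without ureter replicate 3, with adjusted p = 0.0638 at the brighter and 0.102 at the dimmer probe set. The other alternatives for each probe set ranged from 0.00636 to 0.0443 and from 0.0122 to 0.0414. The mean of both, an alternative chosen after the data were seen and adjusted over genes, gave 2.61 (adjusted p = 0.00427).

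Gata2 is also a gene of endothelium and mast cells, whose marker genes were therefore read beside it. Over 16 endothelial genes the summed intensity was 49219.3 to 51685.41 in the ureters and 36476.05 in the reference. Tek, an angiopoietin receptor gene (2.04 ± 0.32), and Sox17 (1.40 ± 0.28) were higher and the lymphatic regulator gene Prox1 lower (-3.11 ± 0.61). Lyve1, another lymphatic gene of the list, did not pass (0.19 ± 0.26, limma adjusted p = 0.709). It read 11270.64 to 14799.1 in the ureters against 10759.79 in the reference. Over 7 mast cell genes the sum was 3458.49 to 8089.07 in the ureters and 20698.2 in the reference, with the protease genes Cma1 (-3.07) and Cpa3 (-2.64) lower and none higher. The number of lower mast cell genes was 1 with no filter. It was 0 with median-centred arrays, with no intensity trend and without ureter replicate 3. The number of higher endothelial genes was 0 with no intensity trend and without replicate 3. Among 12 regulators of the ureteric mesenchyme 5 were higher and none lower, namely Tbx18 (5.24), Tcf21 (3.04), Tbx2 (2.73), Foxd1 (2.51) and Tbx3 (2.12), and their sum was 58887.02 to 62945.98 against 12438.42. The smallest differences of the 3 lists were -0.01 for the endothelial cadherin gene Cdh5, -0.10 for Ms4a2 and 0.68 for Tshz3, none of which passed. In whole tissue, more cells of a type and more RNA per cell cannot be told apart, and the part of any of these cells in the Gata2 values was not tested.

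Gata3, measured by 1 probe set, 1448886_at, was 4.02-fold higher in the ureters. The deposited intensity was 11605.5, 9347.79 and 8462.43 in the ureters and 2362.83 in the reference. Each ureter lay well above the reference, and the spread between them (SD 0.21, n = 3) was small beside the difference of 2.01 ± 0.30 (adjusted p = 0.0204). The difference was 2.03 with the scaling as deposited and 2.76 with median-centred arrays. The call ended without ureter replicate 3 (adjusted p = 0.0825) and in the fit without an intensity trend (0.0676), the range over the alternatives being 0.00683 to 0.0825. The lowest came from the mean of a gene's probe sets, chosen after the data were seen and adjusted over fewer features.

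Of the 20 urothelial genes, the 11 that were higher were led by the plaque genes Upk3a (5.79) and Upk1b (5.64) and by the sorting nexin gene Snx31, at least 73.96-fold higher because it was at background in the reference, and Elf3 (-0.10), an epithelial regulator, showed the smallest difference. Their summed intensity was highest in replicate 1, at 408539.34, beside 301550.86 and 311718.35 for replicates 2 and 3, whereas the whole-mouse pool stood at 115956.99. The keratin gene Krt5, one of the 9 that did not pass, differed the other way (-1.74 ± 0.41, adjusted p = 0.0619). The number of urothelial genes that were lower, 0 here, was 1 with 60% of probe sets left out as dim, without ureter replicate 1, without replicate 2 and with averaged probe sets, and 6 were higher without replicate 3. Kidney collecting duct also expresses Gata3. None of the 8 nephron and collecting duct genes passed the test in either direction (none at an unadjusted p under 0.05), and their median difference was -0.57. The ureters differed widely at several of them, with SEs of up to 2.07, so a missing call does not show equal levels. Aqp2, the water channel gene of the collecting duct, read 137.65, 561.01 and 402.39 in the ureters and 266.23 in the reference (1.01 ± 0.68). Of 11 nephric duct and ureteric bud genes, the embryonic setting of Gata3, none passed either (none at an unadjusted p under 0.05), and the receptor gene Ret differed by -0.15. Their summed intensity was 10826.18 in replicate 1, 24734.83 in replicate 2 and 22589.47 in replicate 3, against 13158.32 in the reference. Without ureter replicate 1, 2 of these genes were higher. Of 9 skin genes 8 were lower and none higher, among them the cornified envelope genes Lor (-8.07) and Flg (at least 110.7-fold) and the desmosome gene Dsg1a (at least 24.04-fold), whereas Ivl (0.75) did not pass. At or below background in every ureter were 3 of these skin genes, which entered the test through the reference and could not be called higher. With averaged probe sets 1 skin gene was higher. Of 8 genes of autonomic and chromaffin cells the tubulin gene Tubb3 (at least 23.3-fold) and Stmn2 (-2.37) were lower and none higher, and none of 4 T and innate lymphoid genes passed (1 at an unadjusted p under 0.05). The smallest differences of the last pair of lists were -0.01 for the catecholamine enzyme gene Th and -0.02 for Cd8a, and Aqp1 (0.21) was nearest to 0 among the kidney genes. The share of any of these cells in the Gata3 values was not tested.

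**Figure D2:**
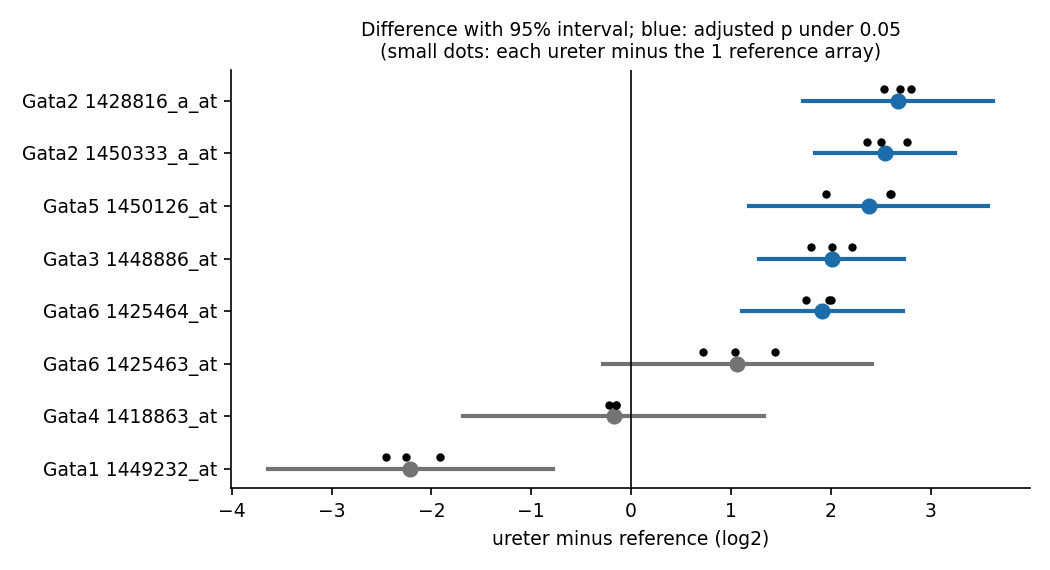
Ureter minus reference on the log2 scale for the 8 tested GATA probe sets, as the fitted difference with its 95% confidence interval, and each ureter minus the reference as small dots. The intervals of the 5 probe sets in blue, all with adjusted p under 0.05, lie above 0 and overlap one another. Those of Gata4 1418863_at and Gata6 1425463_at span 0, and that of Gata1 lies below 0 although its adjusted p did not pass.

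Gata5 was higher at 1 of its probe sets and unmeasured at the other. Probe set 1450126_at read 848.7, 645.73 and 911.43 in the ureters against 227.67 in the reference, where it was only a little above background. Replicate 2 was the lowest of the ureters, but none overlapped the reference. The difference was 2.38 ± 0.49, 5.21-fold, and just passed (adjusted p = 0.0463). Probe set 1450125_at read 51.14, 125.42 and 86.95 in the ureters and 176.19 in the reference, at or below background on all 4 arrays, and says nothing about the direction. The Gata5 call passed under 5 of 10 alternatives, the fewest among the called probe sets, with adjusted p from 0.0185 to 0.183. The lowest came from the mean of a gene's probe sets, an alternative chosen after the data were seen and adjusted over fewer features. The next lowest was 0.0310, without ureter replicate 2. The call ended without ureter replicate 1 (0.0785) and without replicate 3 (0.183), with the scaling as deposited (1.75, adjusted p = 0.114), with no filter (0.0835) and with no intensity trend (0.0670).

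Gata6 was higher at its brightest probe set. Intensities at 1425464_at were 4983.67, 4579.46 and 4140.87 in the ureters and 1308.19 in the reference. The ureters agreed closely (SD 0.14, n = 3) and did not overlap the reference. The difference was 1.91 ± 0.33, 3.76-fold (adjusted p = 0.0289). At the dimmer 1425463_at the ureters read 367.04, 393.7 and 237.53 and the reference 253.52, so that as deposited replicate 3 was below the reference. After quantile normalization all 3 ureters were above it, and the difference of 1.06 ± 0.55 did not pass (adjusted p = 0.306). The third probe set, 1443081_at, was at or below background on every array, with 22.88, 145.4 and 53.74 in the ureters and 18.72 in the reference. The mean of the tested Gata6 probe sets, chosen as an alternative after the data were seen, gave 1.49 (adjusted p = 0.0488). The call at 1425464_at ended without ureter replicate 3 (0.124), with median-centred arrays (0.0503) and with no intensity trend (0.0668), within a range of 0.0208 to 0.124.

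Gata4, the cardiac and gonadal member, was near background in all samples. At 1418863_at the intensity was 104.93, 178.44 and 128.06 in the ureters and 269.0 in the reference, with replicate 2 below its array's background level. The difference of -0.17 ± 0.62 did not pass (adjusted p = 0.900), and its 95% confidence interval, -1.68 to 1.33, leaves room for a change of more than 2-fold in either direction. With the scaling as deposited, 1418863_at differed by -0.94, also without passing (adjusted p = 0.549). The other probe set, 1418864_at, read 17.62, 14.37 and 11.88 against 38.1, below background on all 4 arrays.

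Many genes of the organs best known for Gata4, Gata5 and Gata6 were lower in the ureters. Of 13 gut, liver and pancreas genes 10 were lower and none higher, led by the apolipoprotein gene Apoa1 (at least 411-fold), the fatty acid binding protein gene Fabp1 (at least 376-fold) and Fabp2 (-8.36), and their summed intensity was 4151.33 to 11512.47 in the ureters against 446105.61 in the reference. Fabp2 was below background in replicates 1 and 2. Of 12 heart genes 5 were lower, the myosin light chain genes Myl2 (-7.41) and Myl3 (-3.48), Myh6 (-2.51), Actc1 (-1.23) and Nppa (at least 7.03-fold), and the troponin gene Tnnt2 was higher (1.18), with sums of 46776.2 to 50635.18 against 114123.47. Most of the ureter sums came from Actc1 (21557.42 to 22681.03) and Tnnt2 (19679.31 to 24234.66). Of 5 lung genes the surfactant genes Sftpc (-7.67), Sftpd (-4.12) and Sftpa1 (at least 9.36-fold) were lower and none higher. Sftpc was below background in replicates 2 and 3. At or below background in every ureter were 5 gut, 3 heart and 2 lung genes. These entered the test through the reference and could not be called higher. Of 6 gonad and adrenal genes the steroid enzyme gene Hsd3b1 was lower (at least 8.49-fold) and Wt1 (2.77), which encodes a transcription factor of gonad, kidney and mesothelium, was higher. Of the 11 smooth muscle genes, the 8 that were higher were led by Myocd (4.18), Cnn1 (3.75) and Synpo2 (3.63), and the list had summed intensities of 226067.56 to 298016.75 against 94302.65. The intermediate filament gene Des, one of the 3 that did not pass, differed the other way (-1.36 ± 0.37, adjusted p = 0.0906), and 1 smooth muscle gene was lower with averaged probe sets. Without ureter replicate 3, 4 smooth muscle genes were higher. Members with the smallest differences were Hand1 (-0.79) of heart, Sftpb (-2.53) of lung, Cyp11a1 (-0.43) of gonad and adrenal and Foxa2 (at least 3.02-fold dimmer) of the endodermal organs, none of which passed, and the smooth muscle actin gene Acta2 (0.80), which did. The part of these tissues in the Gata4, Gata5 and Gata6 values was not tested.

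Gata1, the erythroid member, had a 4.61-fold lower value in the ureters than in the reference and missed the threshold. At 1449232_at the intensity was 74.96, 162.27 and 141.93 in the ureters and 844.05 in the reference. All ureters were below the reference, which holds for 29.4% of tested probe sets, and replicate 2 was below its array's background level. The difference was -2.21 ± 0.59 with a 95% confidence interval of -3.64 to -0.78 (adjusted p = 0.0849). It passed under 1 of 10 alternatives, the fit on genes averaged over their probe sets (adjusted p = 0.0444), in which fewer features are tested, and otherwise gave 0.0589 to 0.205. Of 9 erythroid genes 5 were lower and none higher, namely Hemgn (-6.15), the anion exchanger gene Slc4a1 (-4.25), Ermap (-3.67), Trim10 (-2.62) and the haem synthesis gene Alas2 (-2.57), and the erythropoietin receptor gene Epor had the smallest difference (0.84). The erythroid sum was 2303.83 to 3264.71 in the ureters and 39609.72 in the reference, and Rhag was at or below background in every ureter. Megakaryocyte and platelet genes had sums of 12849.87 to 14999.86 against 17762.65, with 1 of 7 lower, the chemokine gene Ppbp (-2.81), and none higher, while Pf4 differed by -0.01. Most of these sums came from Pf4, at 9167.32 to 13068.22 in the ureters and 10049.53 in the reference. The part of blood cells in the Gata1 values was not tested.

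**Figure D3:**
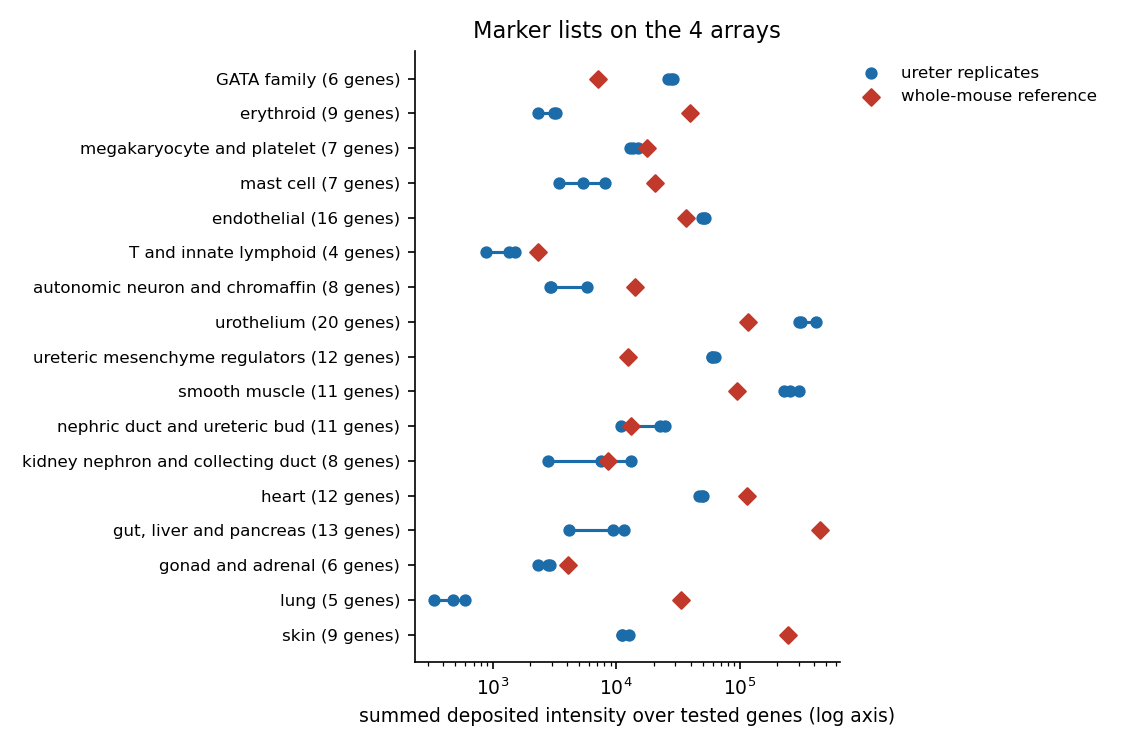
Summed deposited intensity (log axis) of the tested genes in the GATA family and in each marker list, with ureter replicates as blue circles and the reference as a red diamond. The GATA family, endothelial, urothelial, ureteric mesenchyme and smooth muscle sums lie higher in the ureters, the erythroid, gut, lung and skin sums lie lower, and the kidney sum of the ureters spans that of the reference.

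The differences of the called members ran from 1.91 for Gata6 to 2.67 for Gata2, and the confidence intervals of neighbours in that order overlapped (1.72 to 3.63 and 1.84 to 3.24 for the Gata2 probe sets, 1.18 to 3.58 for Gata5, 1.28 to 2.73 for Gata3 and 1.11 to 2.72 for Gata6). Differences between members were not tested, and all share the same reference array.

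Cofactors and relatives of the family gave no call. Of 13 tested cofactors and partners none passed limma's adjusted p (4 at an unadjusted p under 0.05), with a median difference of 0.29. The nearest was Zfpm2, or Friend of GATA 2, a partner of Gata4 in heart and gonad: its probe set 1449314_at read 17347.85, 23279.33 and 16062.72 in the ureters and 7647.89 in the reference. All 3 ureters were above the reference, as in 39.1% of all tested probe sets, and the difference was 1.16 ± 0.28 (adjusted p = 0.0638). A dimmer Zfpm2 probe set, 1419012_at, was at background in the reference and at least 3.20-fold brighter in the ureters, without passing (adjusted p = 0.0971). Zfpm2 passed as higher with median-centred arrays (2.01, adjusted p = 0.0292), with 60% of probe sets left out as dim (0.0492) and as the mean of its probe sets (1.73, adjusted p = 0.0357), and Tcf12, a helix-loop-helix partner gene, passed with median-centred arrays only (1.35, adjusted p = 0.0406). Zfpm1, or Friend of GATA 1, the cofactor of Gata1, differed by -0.36 ± 0.51 (adjusted p = 0.729). Tal1, which works with Gata1 and Gata2 in blood cells, read 165.27, 555.69 and 911.54 in the ureters and 1944.5 in the reference. All ureters were below the reference, as in 29.4% of tested probe sets, but far apart from one another. The difference of -1.92 ± 0.76 did not pass (adjusted p = 0.194). Lmo2, the bridging protein gene of the same complex, differed by 0.53 ± 0.34, and Lyl1 by 0.23, the smallest difference of the list. Ldb1 was too dim to be tested.

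Of 9 other genes with a GATA-type zinc finger none passed limma's adjusted p (1 at an unadjusted p under 0.05), with a median of 0.11. The corepressor subunit gene Mta3 had the lowest p (1.03 ± 0.40, adjusted p = 0.186), and Mta2 the smallest difference (-0.01). Trps1, a repressor that binds GATA sequences, had values above the reference in all 3 ureters at 3 of its 4 tested probe sets, with differences of 0.61 ± 0.33 at the brightest, 1438214_at, 1.16 ± 0.33 at 1434286_at and 1.97 ± 0.92 at 1449530_at. At the fourth, 1457445_at, all ureters were below the reference (-1.85 ± 0.44). Over all tested probe sets, all 3 ureters lay above the reference in 39.1% and below it in 29.4%. None of the 4 Trps1 probe sets passed (adjusted p = 0.329, 0.0974, 0.254 and 0.0630, in that order).

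**Figure D4:**
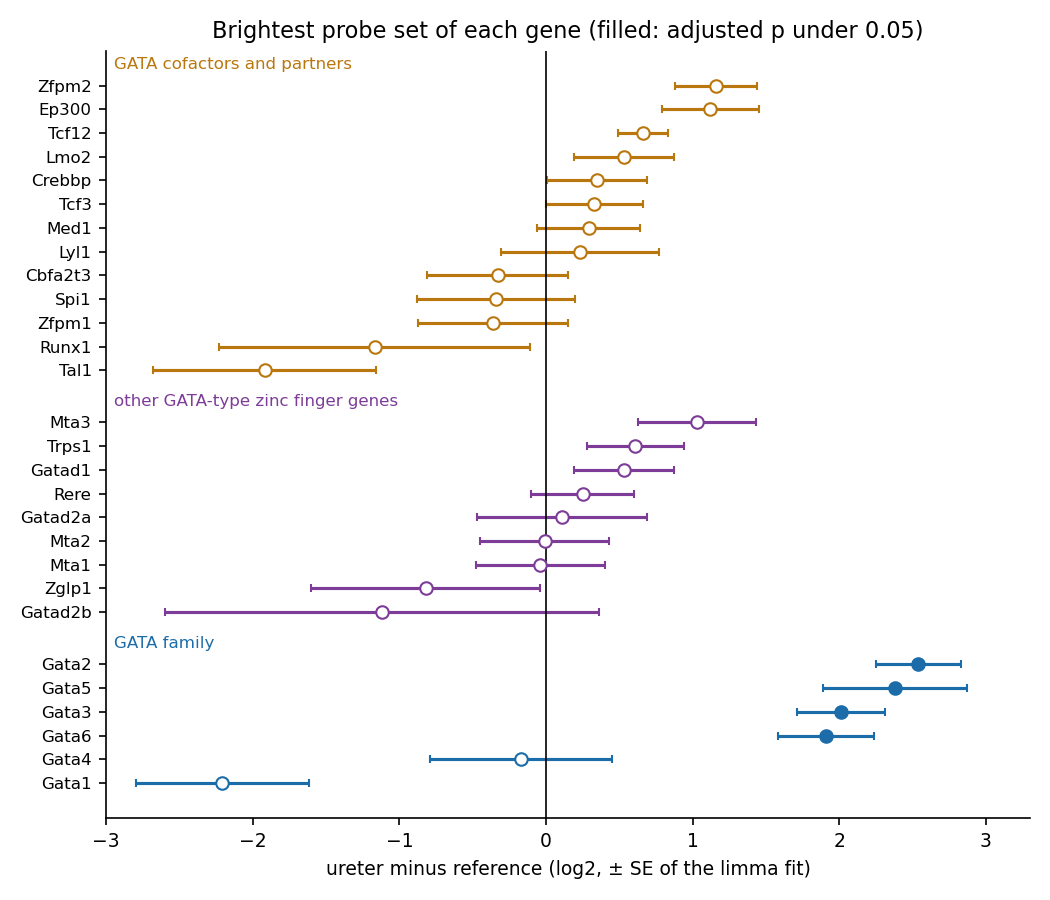
Ureter minus reference (log2) with the SE of the limma fit for the brightest probe set of each GATA gene, of 9 other GATA-type zinc finger genes and of 13 cofactors and partners; filled circles have adjusted p under 0.05. Only Gata2, Gata3, Gata5 and Gata6 are filled, and Zfpm2 is the highest of the cofactors at 1.16.

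For each called GATA probe set the 3 genes with the most similar profile were found by Euclidean distance between centred log2 values over the 4 arrays, among 13717 genes. These are descriptions of 4 points that share 1 reference. Closest to Gata2 1450333_a_at were Adamts1 (distance 0.057), Scara5 (0.191) and Nol8 (0.214), and closest to 1428816_a_at were the homeobox gene Meis1 (0.090), Adamts1 (0.113) and Pnmt (0.113). Adamts1, a secreted protease gene, read 4535.97, 4723.15 and 5842.34 in the ureters and 953.75 in the reference. Gata3 was most like Mpzl2 (0.097), an epithelial adhesion gene, Arhgap18 (0.147) and Cpd (0.148), and Gata6 was most like Cpd (0.068), Yipf2 (0.092) and Chd6 (0.105), so Cpd, a carboxypeptidase gene, stood near both. Gata5 was most like Eaf2 (0.057), Gm9895 (0.138) and Stac (0.144), of which only Stac passed the test (2.41, adjusted p = 0.0310).

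**Figure D5:**
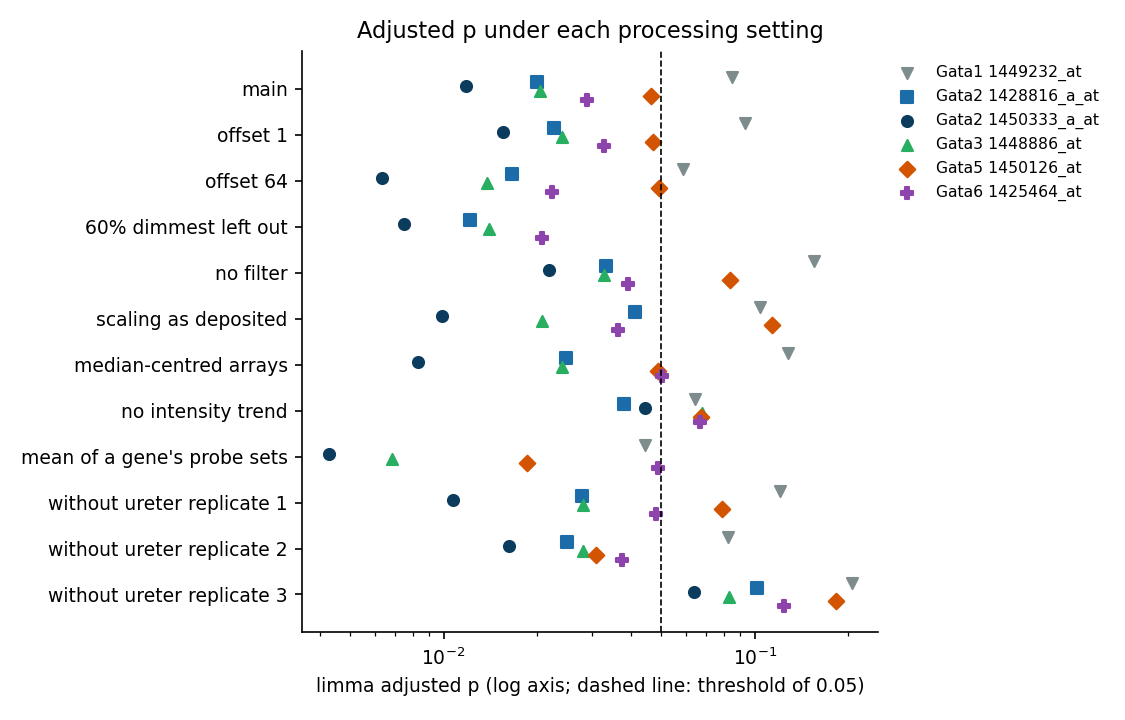
Adjusted p (log axis) of the 5 called GATA probe sets and of Gata1 under the processing reported here and each alternative, with the threshold of 0.05 as a dashed line. All 5 called probe sets move past the line without ureter replicate 3, where the lowest value is 0.0638, and Gata5 crosses it most often.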

How the data were processed

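Total RNA of the 4 samples went through 2 rounds of amplification and biotin labelling, per the labels' protocols. The authors deposited linear intensity values, 1 per probe set and array; the submitters' processing notes name GCOS without a version, and the background step is not given in these sources. Controls (64 of 45101 probe sets) were left out. Intensities were put on a log2 scale with an added offset of 12.23, their 10th percentile, and then quantile normalized, because the arrays' medians differ. The 40% dimmest probe sets were left out by the mean of the group means, leaving 27022. Marker genes at or below background in every ureter entered the test through the reference, so they could be called lower but not higher. Groups were compared with limma 3.58.1 in R 4.3.3 (lmFit and eBayes with an intensity trend, 2 residual degrees of freedom, two-sided); p-values were adjusted over all tested probe sets by Benjamini-Hochberg, with a threshold of 0.05. The fit was checked on simulated data for its estimates of known changes. That simulation gave the reference the spread of the ureters, so it could not check this assumption. Confidence intervals are at 95%. The number of arrays limits the precision. A gene was represented by its brightest tested probe set; names come from the platform annotation. Alternatives were other scalings, offsets of 1 and 64, other filters, no trend, averaged probe sets and leaving out each ureter. Where every array of the dimmer group was at or below the bacterial probe sets, a fold is a lower bound ("at least"), set against the dimmest probe set above them on each array. Genes at background in only some ureters were given the fitted difference, whose size is less certain. The rule for named genes took every GATA probe set, relatives and cofactors that passed or changed least, up to 3 called genes per marker list with the largest change and that with the smallest, and the 3 nearest profiles. Zfpm1, Zfpm2, Tcf12, Tal1, Lmo2, Ldb1, Mta3, Trps1, Rhag, Trim10, Alas2, Foxd1, Tbx3, Myh6, Actc1, Tnnt2, Aqp2, Lyve1, Krt5 and Des were chosen after their values were seen. The members and lists were chosen with earlier results of these data known.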

Additional observations from a re-analysis of the deposited data

How the results depend on the processing

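No tested GATA probe set changed direction under any alternative run. The calls ended as follows, with the log2 difference under each setting. With no intensity trend Gata3 (2.01), Gata5 (2.38) and Gata6 (1.91) did not pass, and 2 GATA probe sets and 273 of all probe sets were called higher. As deposited (1.75) and with no filter (2.38) Gata5 failed as well, and so did Gata6 with median-centred arrays (2.52). All probe sets called higher numbered 444 with the scaling as deposited and 424 with no filter, against 753. As the mean of a gene's probe sets, adjusted over genes, Gata1 (-2.21) passed. Among cofactors, 2 were called higher with median-centred arrays, 1 with 60% left out as dim and 1 with averaged probe sets, against 0 in the reported fit. Leaving out each ureter in turn gave 2.54 to 2.73 and 2.42 to 2.60 for the Gata2 probe sets 1428816_a_at and 1450333_a_at, 1.88 to 2.10 for Gata3, 2.17 to 2.66 for Gata5 1450126_at and 1.80 to 1.96 for Gata6 1425464_at, with 0 to 5 GATA probe sets called higher, and 53 to 997 higher and 282 to 1282 lower over all probe sets; replicate 3 gave the lowest counts, and the cause was not tested. The share of all calls that were higher was 43.8%, 33.5% as deposited and 48.1% with median-centred arrays, and the median of all tested probe sets was 0.11, -0.13 and 0.60. The 60% filter left Gata1, Gata4, Gata5 and the dimmer Gata6 probe set untested, so no value is given for them there. No paired analysis was possible because the reference has 1 sample and the labels give no replicate numbers shared between groups. Signal over background limits Gata4, Gata1, the dimmer Gata5 probe set and the dimmest Gata6 one.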
